A study of Homo sapiens with 36 samples.

Results

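The genes described here are 10 members of the apolipoprotein and lipoprotein assembly group: APOA1, APOA2, APOA5, APOB, APOC1, APOC2, APOC3, APOE, APOM and MTTP. They were picked by name from the 57771 genes of the deposited count table, and all 10 passed the filter on low counts, with at least 82 counts in every library. The study measured poly-A RNA of HepG2-IGF1R-KO cells in 36 libraries, 9 in each of 4 groups, and asked how these cells respond to insulin in normal and in insulin-resistant medium. HepG2 is an established human hepatoma line that keeps many functions of hepatocytes, among them the secretion of lipoproteins. Each group carried the same knockout of IGF1R, the gene of the receptor for insulin-like growth factor 1, so no unedited cells serve as a control, and the labels do not say whether the line is 1 clone. Untreated cells in normal medium formed the first group. The second was in normal medium and received 3 nM human insulin for 18 h. The third was kept for 72 h in insulin-resistant medium, which held 1 nM human insulin, palmitic, linoleic and oleic acids at 0.5 mM and glucose at 20 mM, and received no further insulin. The fourth had the same medium and the 3 nM insulin for 18 h. Sample titles give a time of 72 h for all 4 groups. Whether the insulin of the resistant medium was still present when its untreated cells were collected is not stated in the labels.

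Apolipoproteins are the protein part of lipoproteins, the particles that carry lipid in plasma. Hepatocytes build very-low-density lipoprotein in the endoplasmic reticulum by adding triglyceride to APOB, a step that needs MTTP, and they secrete APOA1 and APOA2 for high-density lipoprotein (HDL). The small exchangeable apolipoproteins move between particles and set how fast their triglyceride is broken down and how they are taken up. In liver, insulin is known to restrain transcription of APOC3 and MTTP, in part through FOXO1, and to favour degradation of newly made APOB protein, which RNA does not show.

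The RefSeq promoter table of GRCh38.p14 held entries for 7 of the 10 members, and APOA1, APOB and APOC3 were not matched. The promoters of 4 members are shown as the 250 bases before the listed start, read 5′ to 3′ on the gene's strand: APOM and APOA5 had the largest responses to insulin, APOA2 was the member that rose with the resistant medium, and MTTP is the lipid transfer protein of the set. APOA5 and MTTP have 2 listed starts each, of which the first and the second are shown.
APOM chr6:31655644-31655893 (plus strand): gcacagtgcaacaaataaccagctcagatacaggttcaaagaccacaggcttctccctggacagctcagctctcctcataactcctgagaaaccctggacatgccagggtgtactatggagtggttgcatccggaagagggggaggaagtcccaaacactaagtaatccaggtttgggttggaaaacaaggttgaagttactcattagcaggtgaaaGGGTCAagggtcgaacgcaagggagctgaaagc
APOA5 chr11:116792421-116792670 (minus strand): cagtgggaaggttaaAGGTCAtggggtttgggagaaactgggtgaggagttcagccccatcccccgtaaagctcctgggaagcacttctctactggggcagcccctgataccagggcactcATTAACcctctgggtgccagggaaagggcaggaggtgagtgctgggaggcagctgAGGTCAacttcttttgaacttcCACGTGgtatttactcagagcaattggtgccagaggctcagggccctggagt
APOA2 chr1:161223629-161223878 (minus strand): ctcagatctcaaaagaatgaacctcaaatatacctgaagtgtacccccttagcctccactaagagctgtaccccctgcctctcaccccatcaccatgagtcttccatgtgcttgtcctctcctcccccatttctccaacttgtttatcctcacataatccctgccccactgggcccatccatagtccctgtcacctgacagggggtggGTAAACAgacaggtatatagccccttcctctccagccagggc
MTTP chr4:99574574-99574823 (plus strand): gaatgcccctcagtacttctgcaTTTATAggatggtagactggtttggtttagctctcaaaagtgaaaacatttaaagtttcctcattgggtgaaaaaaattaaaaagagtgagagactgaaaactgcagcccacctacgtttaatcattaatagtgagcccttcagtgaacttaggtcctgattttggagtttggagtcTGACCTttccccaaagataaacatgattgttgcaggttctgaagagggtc
Capitals mark matches, on either strand, to 6 motifs. The core of forkhead factors, GTAAACA, lay 42 bases before the start of APOA2 and was found in 2.98% of all 35116 promoter windows of this length. The core of several nuclear receptors, searched as AGGTCA, lay 235 and 74 bases before the start of APOA5 and, reversed, 50 bases before that of MTTP, and was found in 12.1% of windows. Its variant GGGTCA lay 33 bases before the start of APOM, and 12.1% of windows held it. The E-box CACGTG lay 52 bases before the start of APOA5 (6.34% of windows). A core of HNF1 factors, GTTAAT, was reversed at 129 bases in the same promoter (6.23% of windows). The TATA box, searched as TATAAA, was reversed at 227 bases in that of MTTP (10.7% of windows). The listed starts not shown for these genes held fewer matches. The first start of MTTP had no match, and the second of APOA5 had only AGGTCA, at 156 bases. These are letter matches in short windows, and binding was not measured. Of the members, APOA5, APOC3 and APOA1 are neighbours on chromosome 11, and APOE, APOC1 and APOC2 on chromosome 19.

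Library totals ran from 26.6M to 116.8M counts, with a median of 64.6M. Levels below are in CPM, a gene's count relative to the library total, scaled by edgeR's TMM factors, and 9 libraries stand behind each mean ± SD unless another n is given. The reference was 24 hepatocyte genes, such as ALB, TTR and HNF4A. In each group, 22 to 24 of them had a median of at least 1 CPM, with the libraries low in COL1A1, described next, taken apart. Libraries also differed in markers of stromal cells: COL1A1, a collagen chain, lay between 7166 and 35850 CPM in 30 libraries and between 0.742 and 1.60 CPM in 6, namely insulin-stimulated replicates 4, 5 and 6 of normal medium and untreated replicates 1, 2 and 3 of resistant medium. Of the 20 stromal markers, 20 had a group median of at least 1 CPM among the 30 libraries, and 8 or 9 did among the 6. The 20 markers summed to 21499 to 92032 CPM in the 30 libraries and to 213 to 256 CPM in the 6. The geometric mean CPM of the 24 hepatocyte genes, called the hepatocyte level, was 163 to 237 in the 6 libraries and 75.4 to 197 in the 30. Its mean was 155 ± 21.4 in untreated normal medium, 154 ± 57.0 with insulin there, 126 ± 36.9 in untreated resistant medium and 86.4 ± 5.73 with insulin in resistant medium. In bulk RNA, fewer cells of a type and less RNA per cell cannot be told apart. The main results are therefore set beside values without the 6 libraries and values scaled to the hepatocyte genes, and the part of cell mixture in any of them was not tested. Within a group, the replicates numbered 1, 2 and 3 mostly resembled each other, as did 4, 5 and 6 and 7, 8 and 9. Insulin-stimulated replicate 2 of normal medium was an exception. Its COL1A1 was 9993 CPM and its hepatocyte level 164, against 21047 and 107 in replicate 1 and 22916 and 93.1 in replicate 3. The labels do not say what the 9 replicates share, so p-values may rest on fewer independent cultures than 9.

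Set per kilobase of exon (lengths from GENCODE 29), the members' median levels over the 36 libraries fell into a high and a low set. APOA2 stood at 700.4 CPM per kb (404 to 1427), APOA1 at 478 (271 to 1063), APOE at 282 (196 to 540.3) and APOB at 268 (161 to 687). The other members lay at least several-fold lower, in the order APOC2 (39.0 CPM per kb), APOC1 (25.1), APOM (23.5), MTTP (8.88), APOC3 (8.54) and APOA5 (2.41). Within each set the ranges of neighbours in this order overlapped, except those of APOC3 and APOA5, and the lowest library of APOB lay above the highest library of APOC2, at 69.0 CPM per kb. APOB, whose exons span 14828 bases, led in CPM without length, with a median of 3969. Reads of close copies were few: the APOC1 pseudogene APOC1P1 had a median of 0.719 CPM, the readthrough gene APOC4-APOC2 0.287 CPM and the antisense gene APOA1-AS was listed at 0 in the median library.

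**Figure D1:**
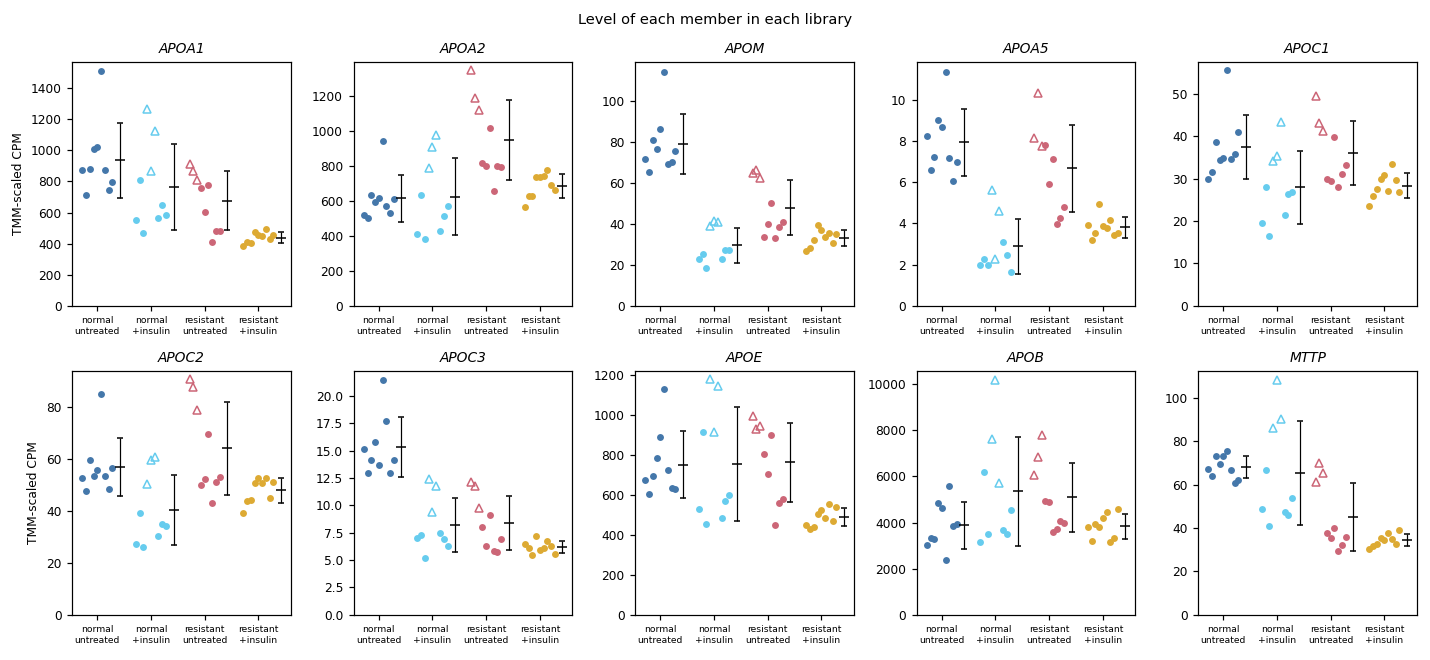
CPM of each of the 10 members by group on a linear axis from 0; each dot is a library, open triangles are the 6 libraries with COL1A1 below 10 CPM, and black bars give the mean ± SD. With insulin in normal medium, APOM, APOA5 and APOC3 lie below all untreated libraries of that medium, and the triangles sit at the top of their groups for most members.

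In normal medium, insulin lowered 5 of the 10 members and raised none. APOM, a lipocalin of HDL that carries sphingosine-1-phosphate, and APOA5, which promotes triglyceride breakdown by lipoprotein lipase, had the largest falls, followed by the lipase inhibitor APOC3 and by APOC2 and APOC1. Calls are edgeR quasi-likelihood tests at a Benjamini-Hochberg adjusted p under 0.05 over 17983 genes, of which 10.2% were lower and 24.9% higher in this comparison. The median log2 fold change was -0.33 over the members and 0.030 over all genes. Leaving out the 6 libraries low in COL1A1 gave 9 members lower and 0 higher, against 18.1% and 15.4% of genes. Scaled to the hepatocyte genes, 6 were lower and 1 was higher, against 6.08% and 17.9% of genes. With the triplets of replicates summed to 3 samples a group, APOM and APOA5 were still called, and APOC3 (adjusted p = 0.0620), APOC1 (0.175) and APOC2 (0.212) were not.

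Of the HDL members, APOM ran from 65.1 to 114 (median 75.3) CPM in untreated cells and from 18.1 to 41.2 (median 27.1) CPM with insulin. The 2 groups did not overlap, and the ratio of their means was 0.372. The log2 fold change of APOM was -1.41 ± 0.16 (SE; adjusted p = 1.55e-08), -1.78 (adjusted p = 1.11e-12) without the 6 libraries and -1.40 (adjusted p = 1.02e-15) on the hepatocyte scale. In each of the 36 fits that left out 1 library APOM was called, at -1.62 to -1.35. APOA1, the main structural protein of HDL, ran from 714 to 1514 (median 875) CPM untreated and from 469 to 1264 (median 646) CPM with insulin, so the groups overlapped. Its log2 fold change of -0.25 ± 0.16 (SE; adjusted p = 0.239) did not pass, while -0.65 (adjusted p = 3.05e-06) without the 6 libraries and -0.24 (adjusted p = 0.00629) on the hepatocyte scale did. It also passed when insulin replicate 4 or insulin replicate 6 alone was left out. APOA2, the second HDL protein, ran from 502 to 946 (median 592) CPM untreated and from 382 to 976 (median 573) CPM with insulin, with a log2 fold change of 0.037 ± 0.16 (SE; adjusted p = 0.892). The APOA2 value was -0.38 (adjusted p = 0.00450) without the 6 libraries and 0.033 (adjusted p = 0.878) on the hepatocyte scale.

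Among the exchangeable members, APOA5 ran from 6.05 to 11.4 (median 7.24) CPM in untreated cells and from 1.63 to 5.63 (median 2.28) CPM with insulin. No insulin-stimulated library reached the lowest untreated library. The log2 fold change of APOA5 was -1.43 ± 0.19 (SE; adjusted p = 3.27e-07), -1.86 (adjusted p = 1.23e-11) without the 6 libraries and -1.41 (adjusted p = 1.66e-10) on the hepatocyte scale. APOC3, which inhibits lipoprotein lipase and the uptake of remnants, ran from 12.9 to 21.5 (median 14.1) CPM and, with insulin, from 5.15 to 12.4 (median 7.29) CPM, again without overlap. Its log2 fold change was -0.89 ± 0.16 (SE; adjusted p = 2.44e-05), -1.28 (adjusted p = 2.18e-10) without the 6 libraries and -0.88 (adjusted p = 5.16e-10) on the hepatocyte scale. These 3 members were those whose ranges did not overlap, as was so in the same direction for 1.81% of all genes.

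APOC2, the activator of lipoprotein lipase, ran from 47.9 to 85.0 (median 53.7) CPM untreated and from 26.2 to 61.0 (median 35.2) CPM with insulin, and its log2 fold change was -0.49 ± 0.16 (SE; adjusted p = 0.0149). APOC1, known to slow the clearance of triglyceride-rich particles, ran from 30.0 to 55.6 (median 34.9) CPM and from 16.4 to 43.5 (median 26.8) CPM, with a log2 fold change of -0.42 ± 0.14 (SE; adjusted p = 0.0197). The ranges of both genes overlapped over all libraries and no longer did without the 6 libraries, as for 4.55% of genes in this direction. There the log2 fold changes were -0.90 (adjusted p = 8.00e-08) for APOC2 and -0.77 (adjusted p = 3.66e-06) for APOC1, and on the hepatocyte scale -0.49 (adjusted p = 5.77e-07) and -0.40 (adjusted p = 0.00108). APOE, a ligand for the uptake of lipoprotein remnants, ran from 604 to 1133 (median 694) CPM and from 457 to 1184 (median 602) CPM. Its log2 fold change was 0.042 ± 0.16 (SE; adjusted p = 0.872) over all libraries, -0.37 (adjusted p = 0.00190) without the 6 and 0.043 (adjusted p = 0.720) on the hepatocyte scale.

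The assembly members did not pass over all libraries. APOB ran from 2395 to 5571 (median 3864) CPM in untreated cells and from 3163 to 10179.6 (median 4540.4) CPM with insulin, with a log2 fold change of 0.47 ± 0.20 (SE; adjusted p = 0.0676). Its value was 0.0015 (adjusted p = 0.996) without the 6 libraries and 0.43 (adjusted p = 0.0242) on the hepatocyte scale, where it was the 1 member higher. APOB was also called when insulin replicate 1, 3, 7 or 8 was left out singly. MTTP, which loads lipid onto APOB, ran from 60.8 to 75.6 (median 67.3) CPM and from 40.9 to 108 (median 53.9) CPM, so the insulin-stimulated libraries spanned the untreated range on both sides. Its log2 fold change was -0.058 ± 0.17 (SE; adjusted p = 0.839), with -0.51 (adjusted p = 1.46e-06) without the 6 libraries and -0.078 (adjusted p = 0.301) on the hepatocyte scale. The hepatocyte genes themselves had a median log2 fold change of 0.19 over all libraries, with 6 higher and 4 lower of 24, and of -0.24 without the 6, with 2 higher and 13 lower. The 20 stromal markers had medians of -0.59 and -0.13.

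**Figure D2:**
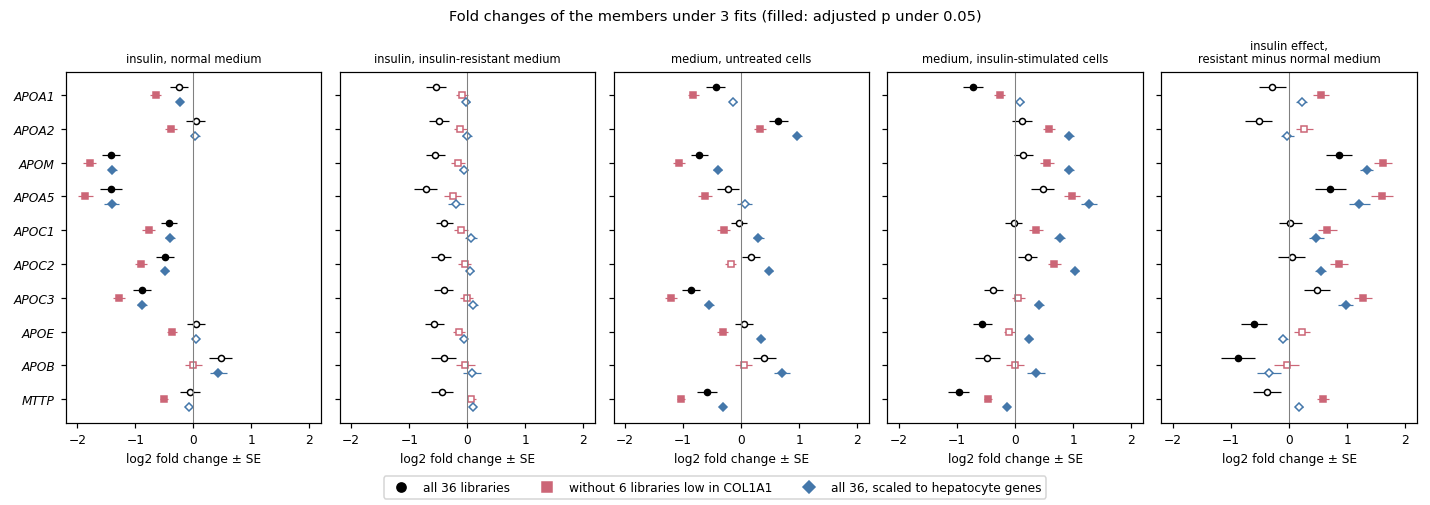
Log2 fold changes of the 10 members in each comparison, with bars for the SE; black is the fit of all 36 libraries, red the fit without the 6 libraries low in COL1A1 and blue the fit scaled to the hepatocyte genes, and filled points have an adjusted p under 0.05. With insulin in normal medium APOM, APOA5, APOC3, APOC2 and APOC1 are filled and below 0 in all 3 fits, and with insulin in resistant medium no point is filled.

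The resistant medium alone, compared in untreated cells, lowered APOC3, APOM, MTTP and APOA1 and raised APOA2. Of all genes tested with edgeR, 8.62% were lower and 13.3% higher. The median log2 fold change was -0.14 over the members and -0.035 over all genes. Leaving out the 6 libraries gave 7 members lower and 1 higher, against 16.0% and 10.7% of genes. On the hepatocyte scale 3 were lower and 5 higher, against 1.57% and 35.7% of genes. With summed triplets each of the 5 calls was lost, at adjusted p of 0.144 for APOC3, 0.256 for APOM, 0.366 for APOA2, 0.489 for MTTP and 0.680 for APOA1. The hepatocyte genes had a median log2 fold change of 0.036 (1 higher and 5 lower) over all libraries and -0.38 (0 higher and 17 lower) without the 6. Values on their scale, taken over all libraries, are therefore relative to genes of which some fell with the medium, such as ITIH1 (-2.39) and FGA (-1.38). The same untreated libraries of normal medium serve as the control of this comparison and of the previous one.

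APOA2 ran from 659 to 1349 (median 819) CPM in untreated cells of resistant medium, above its median of 592 CPM in normal medium in all 9 libraries. Its log2 fold change with the medium was 0.64 ± 0.16 (SE; adjusted p = 0.00309), 0.32 (adjusted p = 0.0183) without the 6 libraries and 0.96 (adjusted p = 3.89e-12) on the hepatocyte scale. Relative to the hepatocyte level APOA2 stood at 7.69 ± 0.861 against 3.95 ± 0.458, and these ranges did not overlap, as was so upward for 11.2% of genes. APOM ran from 33.1 to 66.2 (median 40.7) CPM, and 1 or more of these libraries overlapped the lowest of normal medium. Its log2 fold change was -0.72 ± 0.15 (SE; adjusted p = 0.000712), -0.41 (adjusted p = 5.27e-05) on the hepatocyte scale and -1.07 (adjusted p = 9.04e-09) without the 6 libraries, where the ranges no longer overlapped. APOA1 ran from 408 to 911 (median 761) CPM, and its log2 fold change of -0.44 ± 0.16 (SE; adjusted p = 0.0395) was -0.83 (adjusted p = 9.05e-08) without the 6 libraries and -0.14 (adjusted p = 0.0867) on the hepatocyte scale. The APOA1 call held in 26 of the 36 fits that left out 1 library. It was lost without replicate 1, 3, 6 or 7 of untreated normal medium or replicate 4, 5, 6, 7, 8 or 9 of untreated resistant medium.

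APOC3 ran from 5.77 to 12.2 (median 7.97) CPM in resistant medium, below every untreated library of normal medium. It was the 1 member with no overlap in this comparison on the CPM scale, where 1.62% of genes lay wholly lower. The log2 fold change of APOC3 was -0.86 ± 0.16 (SE; adjusted p = 8.19e-05), -1.21 (adjusted p = 4.52e-10) without the 6 libraries and -0.56 (adjusted p = 2.02e-06) on the hepatocyte scale. APOA5 ran from 3.96 to 10.3 (median 7.14) CPM, with a log2 fold change of -0.23 ± 0.19 (SE; adjusted p = 0.427), and of -0.62 (adjusted p = 0.000371) without the 6 libraries. APOC1 ran from 28.0 to 49.5 (median 33.2) CPM and APOC2 from 43.2 to 90.8 (median 53.0) CPM, both overlapping normal medium. Neither passed over all libraries, at log2 fold changes of -0.045 (adjusted p = 0.869) for APOC1 and 0.17 (adjusted p = 0.503) for APOC2, and both were higher on the hepatocyte scale, at 0.29 and 0.48. APOE ran from 448 to 998 (median 808) CPM, and its log2 fold change was 0.045 (adjusted p = 0.883) over all libraries, -0.32 (adjusted p = 0.00814) without the 6 and 0.35 (adjusted p = 6.52e-06) on the hepatocyte scale, so its direction turned with the libraries and scale used.

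MTTP ran from 29.2 to 70.1 (median 37.6) CPM in untreated resistant medium, with its 3 highest values in the libraries low in COL1A1. Without them it ran from 29.2 to 39.9 (median 35.4) CPM (n = 6), below every library of normal medium. Ranges lay wholly lower in the same way for APOM and APOC3, and for 3.97% of genes. The log2 fold change of MTTP was -0.60 ± 0.17 (SE; adjusted p = 0.0104), -1.04 (adjusted p = 3.69e-12) without the 6 libraries and -0.31 (adjusted p = 3.01e-06) on the hepatocyte scale. APOB ran from 3578 to 7793 (median 4893) CPM, and its log2 fold change of 0.40 ± 0.20 (SE; adjusted p = 0.162) did not pass. This was 0.040 (adjusted p = 0.871) without the 6 libraries and 0.70 (adjusted p = 0.000182) on the hepatocyte scale.

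Insulin in resistant medium changed no member in the edgeR test, although all 10 had log2 fold changes below 0. At an unadjusted p under 0.05 were 9 of the 10, and DESeq2 also called 0. Of all genes, 0% were called by edgeR, although 4490 had an unadjusted p under 0.05. The calls of DESeq2 were 49 genes higher and 36 lower. The member values ran from -0.72 for APOA5 to -0.40 for APOC1, with adjusted p from 0.0995 to 0.231. Without the 6 libraries low in COL1A1, 3 of which are untreated libraries of this comparison, they ran from -0.26 for APOA5 to 0.069 for MTTP, with adjusted p of 0.915 to 0.997. On the hepatocyte scale they ran from -0.20 to 0.094. The design of the fit mattered over all libraries: with only these 18 libraries all 10 members were lower (16.3% of genes), with the replicate number as a block 6 were (10.4% of genes), and with no batch term 4 were (8.65% of genes). Leaving out untreated replicate 7 gave 6 lower members and leaving out untreated replicate 9 gave 4. The hepatocyte genes had a median of -0.52 over all libraries and -0.061 without the 6, and the stromal markers 0.49 and -0.33.

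In insulin-stimulated cells of resistant medium, HDL members ran from 386 to 492 (median 448) CPM for APOA1, from 567 to 775 (median 689) for APOA2 and from 26.6 to 39.2 (median 33.4) for APOM. APOM overlapped the untreated cells of that medium, and its log2 fold change with insulin was -0.55 ± 0.16 (SE; adjusted p = 0.0995), against -0.17 (adjusted p = 0.929) without the 6 libraries. Among exchangeable members APOA5 ran from 3.18 to 4.92 (median 3.78) CPM, APOC3 from 5.45 to 7.16 (median 6.13) and APOE from 429 to 556 (median 485). APOC1 ran from 23.6 to 33.5 (median 27.5) CPM and APOC2 from 39.3 to 52.9 (median 51.0). APOB ran from 3139.7 to 4589.9 (median 3816) CPM and MTTP from 30.5 to 38.9 (median 34.6). No member separated from untreated cells of the same medium, and 0.128% of genes lay wholly lower. The spread in this group, none of whose libraries was low in COL1A1, was the smallest of the 4 groups for 9 of the 10 members in CPM, with coefficients of variation of 7.93% for APOA1 to 13.8% for APOB. The exception was MTTP, at 8.18% against 7.67% in untreated normal medium.

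The medium was also compared between insulin-stimulated cells, where MTTP, APOA1 and APOE were lower in resistant medium and no member was higher. Of all genes, 26.3% were lower and 12.0% higher, and the members' median was -0.20 against -0.011. When the 6 libraries low in COL1A1 were left out, 3 of which are in this comparison, 5 members were higher and 2 lower, against 17.8% and 18.2% of genes. On the hepatocyte scale 8 were higher and 1 lower, against 57.9% and 2.14% of genes. Summed triplets called none, with adjusted p of 0.126 for MTTP, 0.186 for APOA1 and 0.295 for APOE. The hepatocyte genes fell with the medium here, with a median of -0.81 and 1 higher and 22 lower over all libraries, and of -0.32 with 2 higher and 13 lower without the 6.

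MTTP had a log2 fold change of -0.97 ± 0.18 (SE; adjusted p = 6.38e-05) in insulin-stimulated cells, -0.47 (adjusted p = 1.27e-05) without the 6 libraries and -0.15 (adjusted p = 0.0180) on the hepatocyte scale. Every insulin-stimulated library of resistant medium lay below every one of normal medium for MTTP, as was so for 10.2% of genes. APOA1 had a value of -0.73 ± 0.17 (SE; adjusted p = 0.000643) and APOE of -0.57 ± 0.16 (SE; adjusted p = 0.00643). Without the 6 libraries these were -0.27 (adjusted p = 0.0335) and -0.098 (adjusted p = 0.451), and on the hepatocyte scale 0.076 (adjusted p = 0.344) and 0.25 (adjusted p = 0.00121), so both were above 0 on that scale, where APOE passed and APOA1 did not. The APOE call was lost when insulin replicate 5 or 6 of normal medium was left out.

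Once the 6 libraries were left out, APOA5, APOM, APOC2, APOA2 and APOC1 were higher in insulin-stimulated cells of resistant medium than of normal medium, while MTTP and APOA1 were lower. APOA5 was at 2.24 ± 0.512 CPM in insulin-stimulated normal medium (SD, n = 6) and at 3.81 ± 0.506 in resistant medium, with a log2 fold change of 0.99 (adjusted p = 2.02e-06) against 0.48 (adjusted p = 0.0559) over all libraries. It was called in 27 of the 36 fits that left out 1 library. APOM was at 23.9 ± 3.43 CPM (SD, n = 6) and 33.0 ± 4.09, with 0.55 (adjusted p = 0.000390) against 0.14 (adjusted p = 0.536). The values of APOC2, APOA2 and APOC1 without the 6 libraries were 0.67 (adjusted p = 1.81e-05), 0.58 (adjusted p = 0.000126) and 0.36 (adjusted p = 0.0198), against 0.21, 0.12 and -0.024 over all libraries. APOC3 and APOB did not pass in either fit, at -0.38 and -0.48 over all libraries and 0.054 and 0.0013 without the 6, though leaving out 1 library brought calls for APOC3 (normal-medium insulin replicate 3 or 9) and APOB (replicate 1).

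Whether the response to insulin differed between the media was tested as an interaction, the log2 fold change in resistant medium minus that in normal medium. APOM and APOA5 had positive interactions, their fall with insulin being smaller in resistant medium, and APOB and APOE had negative ones. Of all genes, 6.22% had positive and 23.5% negative interactions over all libraries. With the triplets summed to 3 samples a group none of the 4 passed, at 0.98 (adjusted p = 0.279) for APOM, 0.69 (adjusted p = 0.555) for APOA5, -0.82 (adjusted p = 0.426) for APOB and -0.60 (adjusted p = 0.564) for APOE. The value of APOM was 0.86 ± 0.22 (SE; adjusted p = 0.00337), 1.62 (adjusted p = 1.93e-08) without the 6 libraries and 1.34 (adjusted p = 6.31e-11) on the hepatocyte scale, and it was called in all 36 fits that left out 1 library. APOA5 had 0.71 ± 0.27 (SE; adjusted p = 0.0443), 1.61 (adjusted p = 3.60e-07) and 1.21 (adjusted p = 1.05e-05) in the same order. The call of APOA5 held in 29 of the 36 fits and was lost without replicate 1, 3 or 6 of untreated or 1, 3, 8 or 9 of insulin-stimulated normal medium.

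The negative interactions did not hold without the 6 libraries. APOB had -0.88 ± 0.29 (SE; adjusted p = 0.0219) over all libraries and -0.039 (adjusted p = 0.930) without the 6, and APOE -0.61 ± 0.22 (SE; adjusted p = 0.0381) and 0.22 (adjusted p = 0.251). Leaving out 1 library at a time kept the call of APOB in 22 fits and that of APOE in 8 of 36. Once the 6 were left out, 7 members had positive interactions and 0 negative, against 12.4% and 9.37% of genes. APOC3 was among them, at 1.27 (adjusted p = 5.96e-07) against 0.48 (adjusted p = 0.102) over all libraries, as were APOC2 at 0.86, APOC1 at 0.66, APOA1 at 0.56 and MTTP at 0.58. On the hepatocyte scale 5 members had positive interactions and 0 negative, against 5.47% and 5.56% of genes, and these were APOM, APOA5, APOC3, APOC2 and APOC1. The median interaction of the hepatocyte genes themselves was -0.70 over all libraries and 0.19 without the 6.

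The direction of the calls was also read within the batch dates of the labels, 22 April, 11 April and 24 May, which hold 2 to 6 libraries of a group each. With insulin in normal medium the log2 fold change of APOM was -1.58, -1.12 and -1.56 in that order and passed in each batch. APOA5, at -1.73, -1.19 and -1.33, passed in the 22 April and 24 May batches, and APOC3, at -1.18, -0.65 and -0.82, in that of 22 April. APOC2 and APOC1 were below 0 in each batch and passed in none. With the medium in untreated cells APOC3 was at -0.85, -0.55 and -1.14, APOM at -0.57, -0.41 and -1.18 and MTTP at -0.53, -0.27 and -0.97, and these passed in the 24 May batch. APOA2 was above 0 in each batch, at 0.78, 0.82 and 0.28, and passed in none. APOA1 was below 0 in each and passed in none. The 24 May batch held no insulin-stimulated library of resistant medium and gives no value for the other comparisons. Between insulin-stimulated cells the medium gave -0.76 and -0.96 for MTTP, -0.47 and -0.87 for APOA1 and -0.28 and -0.73 for APOE, of which MTTP and APOA1 passed in the 11 April batch. The interaction was 0.89 and 0.48 for APOM, 1.11 and 0.19 for APOA5, -0.79 and -0.87 for APOB and -0.38 and -1.01 for APOE, and none passed.

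Dividing each library's CPM by its hepatocyte level narrowed the spread of most members. In the 3 insulin-stimulated libraries of normal medium low in COL1A1, member CPM were 1.63 (APOC1) to 1.91 (APOB) times the mean of the other 6, and relative to the hepatocyte level 0.859 to 1.02 times. In the 3 untreated libraries of resistant medium the ratios were 1.40 (APOC1) to 1.88 (MTTP) in CPM and 0.839 to 1.13 relative to the hepatocyte level. APOA5 fell from 0.0508 ± 0.00467 to 0.0190 ± 0.00566 hepatocyte levels with insulin in normal medium and was at 0.0529 ± 0.00595 and 0.0442 ± 0.00532 in resistant medium without and with insulin. APOM stood at 0.506 ± 0.0414 and 0.196 ± 0.0268 in normal and at 0.383 ± 0.0482 and 0.382 ± 0.0353 in resistant medium. For both genes the insulin-stimulated libraries of normal medium lay below those of all other groups. The share of genes for which this was so was not counted. Against untreated normal medium alone, APOM, APOA5, APOC2 and APOC3 lay wholly below on this scale, as did 2.06% of genes. APOC3 stood at 0.0990 ± 0.0124, 0.0547 ± 0.00863, 0.0671 ± 0.00636 and 0.0720 ± 0.00706 in the same order, with untreated normal medium highest. APOB stood at 25.4 ± 6.98, 34.5 ± 6.19, 41.2 ± 6.71 and 44.4 ± 5.55.

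**Figure D3:**
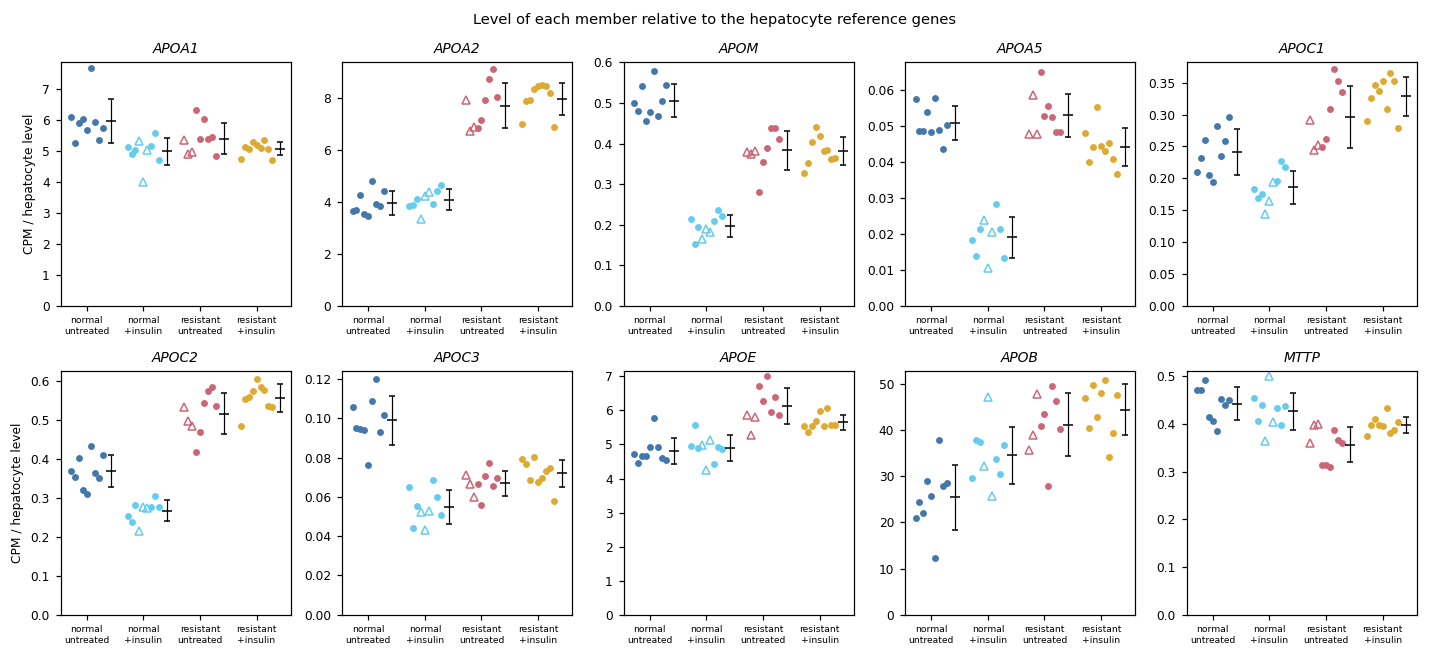
CPM of each member divided by the geometric mean CPM of 24 hepatocyte genes in the same library, by group on a linear axis from 0; dots, triangles and bars are as in the plot of CPM. APOM and APOA5 are lowest with insulin in normal medium, APOA2 is higher in both groups of resistant medium, and the triangles lie among the other libraries.

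Across the 36 libraries, which share groups, triplets and cell mixture, the members varied together to different degrees. As a description, the Pearson correlation of log2 CPM with the hepatocyte level was 0.956 for APOA1, 0.951 for MTTP and 0.927 for APOE, and lowest for APOC2 (0.496), APOA5 (0.434) and APOA2 (0.356). Over the 45 pairs of members the correlation of log2 CPM had a median of 0.583 and ran from 0.0359 to 0.925. After the mean of each triplet of neighbouring replicates was taken out, the median was 0.569. APOB stood apart within triplets, with correlations of -0.369 to 0.500 with the other 9 members and a median of -0.159. The 5 genes outside all lists most like the members' mean z-score over the 36 libraries were PIPOX (r = 0.982), SERPINF1 (0.973), IL17RB (0.972), AFMID (0.971) and MAOB (0.970), of 11137 genes ranked.

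APOB has by far the longest transcript of the set, and within triplets of neighbouring replicates its level moved with that of other long transcripts. Each gene's log2 CPM was first taken as a deviation from the mean of its triplet, which removes differences between groups and triplets. A length index was then taken in each library as the median deviation of 1103 genes with exons of 10000 bases or more minus that of 472 genes of 2000 bases or less, all with a mean of at least 20 CPM. Over the deviations of the 36 libraries APOB had r = 0.654 with this index, MTTP 0.0335 and the other 8 members between -0.638 (APOC1) and -0.239 (APOA5). The part of RNA integrity or library preparation in the level of APOB was not tested.

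**Figure D4:**
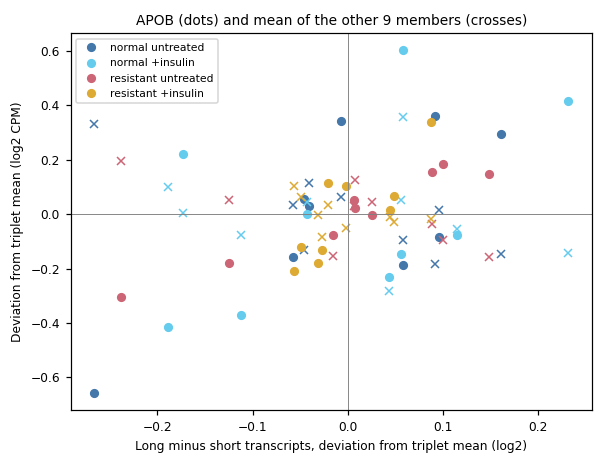
Deviation of log2 CPM from the triplet mean (vertical) for APOB (dots) and for the mean of the other 9 members (crosses), against the length index of each library, itself made from deviations from the triplet mean (horizontal, log2), coloured by group. Within triplets APOB is higher in libraries where long transcripts are higher (r = 0.654 over 36 libraries).

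Other genes of the pathway were counted in 5 lists, whose counts are to be read against the shares of all genes. These were, with insulin in normal medium, 24.9% higher and 10.2% lower over all libraries, 15.4% and 18.1% without the 6 libraries low in COL1A1, and 17.9% and 6.08% on the hepatocyte scale. With the medium in untreated cells they were 13.3% and 8.62%, 10.7% and 16.0%, and 35.7% and 1.57% in the same order. In insulin-stimulated cells they were 12.0% and 26.3%, 17.8% and 18.2%, and 57.9% and 2.14%.

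Of 14 minor apolipoproteins and HDL proteins tested, insulin in normal medium raised 1 and lowered 1, against 1 and 7 without the 6 libraries and 1 and 2 on the hepatocyte scale. APOF, an inhibitor of cholesteryl ester transfer, fell, at a log2 fold change of -0.76 (adjusted p = 0.000972), and at -1.15 (adjusted p = 1.81e-08) without the 6 libraries. In untreated cells the resistant medium raised 3 and lowered 0, against 3 and 4 without the 6 libraries and 8 and 0 on the hepatocyte scale. SAA4, a constitutive HDL protein, rose from 26.7 ± 4.47 to 77.6 ± 20.7 CPM, a log2 fold change of 1.55 (adjusted p = 3.00e-09). APOL1 and APOL2 rose by 0.85 and 0.53, and without the 6 libraries by 0.35 and 0.39. In insulin-stimulated cells 4 were higher and 3 lower, against 5 and 1 without the 6 libraries and 11 and 0 on the hepatocyte scale. SAA4 was at 0.79 and APOL2 at 0.66 there, and both also passed without the 6 libraries and on the hepatocyte scale. APOH, at -0.69 (adjusted p = 0.00229), was at -0.20 (adjusted p = 0.124) without the 6 libraries and at 0.12 (adjusted p = 0.106) on the hepatocyte scale. The median interaction of the list was -0.22 over all libraries, 0.38 without the 6 and 0.22 on the hepatocyte scale.

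Of 25 genes of lipid loading and secretion, insulin in normal medium raised 11 and lowered 2 over all libraries, 5 and 6 without the 6, 8 and 2 on the hepatocyte scale, and 20 and 2 on that scale without the 6. In the last of these fits, 10712 of 18230 genes were higher and 1075 lower. HSPA5, the chaperone BiP of the endoplasmic reticulum, rose from 1158 ± 196 to 4351 ± 1625 CPM, a log2 fold change of 1.91 (adjusted p = 2.53e-10), and TMEM41B, a lipid scramblase of that compartment, rose by 0.89 (adjusted p = 5.15e-09). PLA2G12B, which takes part in the lipidation of APOB particles, fell from 6.73 ± 0.958 to 2.54 ± 1.01 CPM, at -1.40 (adjusted p = 6.94e-08), and at -1.80 (adjusted p = 1.23e-11) without the 6 libraries. The resistant medium in untreated cells gave 7 higher and 1 lower, against 3 and 6 without the 6 libraries and 17 and 0 on the hepatocyte scale. AADAC, a lipid hydrolase of the endoplasmic reticulum, was at 1.08 (adjusted p = 0.00105) there, and at 0.73 (adjusted p = 0.0138) without the 6. Its levels were low, at 0.208 ± 0.0696 CPM in untreated normal medium and 0.449 ± 0.164 CPM in untreated resistant medium. In insulin-stimulated cells the medium gave 2 higher and 10 lower, against 6 and 7 without the 6 libraries and 18 and 2 on the hepatocyte scale. HSPA5 was at -1.96 there and passed in all 3 fits. TMEM41B, at -0.98, and the disulfide isomerase PDIA3, at -0.57, did not pass on the hepatocyte scale, where they were at -0.24 (adjusted p = 0.128) and 0.13 (adjusted p = 0.474). The interaction of HSPA5 was -1.99 (adjusted p = 4.27e-07), and -1.74 (adjusted p = 5.42e-06) without the 6 libraries.

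Of 11 genes that remodel lipoproteins in plasma, insulin in normal medium raised 3 and lowered 2, against 3 and 3 without the 6 libraries and 5 and 2 on the hepatocyte scale. ANGPTL8, an insulin-responsive inhibitor of lipoprotein lipase, rose from 3.89 ± 1.40 to 17.7 ± 6.52 CPM, a log2 fold change of 2.22 (adjusted p = 3.30e-10). The endothelial lipase gene LIPG and the phospholipid transfer gene PLTP rose by 0.90 and 0.56, and without the 6 libraries by 0.51 and 0.30. The resistant medium in untreated cells raised 5 and lowered 2, against 4 and 3 without the 6 libraries and 7 and 1 on the hepatocyte scale. There ANGPTL8 rose to 14.5 ± 3.89 CPM, at 1.91 (adjusted p = 4.20e-09). In insulin-stimulated cells 2 genes of the list were higher and 6 lower, and the balance turned to 4 and 4 without the 6 libraries and 5 and 2 on the hepatocyte scale. The interaction of ANGPTL8 was -2.92 (adjusted p = 1.25e-08), and -2.11 (adjusted p = 1.08e-07) without the 6 libraries.

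Of 12 receptors and uptake genes tested, insulin in normal medium raised 4 and lowered 0, against 3 and 3 without the 6 libraries and 4 and 0 on the hepatocyte scale. The HDL receptor gene SCARB1 rose by 0.54 (adjusted p = 0.00134), and by 0.17 (adjusted p = 0.00909) without the 6. The resistant medium in untreated cells raised 5 and lowered 0, against 3 and 1 without the 6 libraries and 7 and 0 on the hepatocyte scale. Among them was SDC1, a proteoglycan that takes up remnants, at 0.52 (adjusted p = 2.65e-07). In insulin-stimulated cells 2 were higher and 4 lower, against 2 and 2 without the 6 libraries and 7 and 0 on the hepatocyte scale, with SDC1 at 0.47, 0.63 and 1.19.

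Of 20 transcriptional regulators, insulin in normal medium raised 6 and lowered 2, against 3 and 8 without the 6 libraries and 8 and 3 on the hepatocyte scale. CREB3L3, a membrane-bound factor that drives APOA5 and other apolipoprotein genes in liver, fell from 14.2 ± 2.09 to 5.75 ± 2.06 CPM, at -1.28 (adjusted p = 3.42e-07), and -1.69 (adjusted p = 5.26e-12) without the 6 libraries. NR1H4, the bile acid receptor, and the coactivator PPARGC1B rose by 1.14 and 1.15, and without the 6 libraries by 0.66 and 0.85. The resistant medium in untreated cells raised 3 and lowered 4, against 2 and 10 without the 6 libraries and 11 and 1 on the hepatocyte scale. The coactivator PPARGC1A was at -1.27 (adjusted p = 9.80e-06) and the repressor NR0B2 at 0.90 (adjusted p = 2.64e-05), with 0.57 for NR0B2 without the 6. In insulin-stimulated cells 1 was higher and 12 lower, against 4 and 5 without the 6 libraries and 12 and 3 on the hepatocyte scale. CEBPA was at -1.21 (adjusted p = 4.50e-07) there, -0.74 without the 6 libraries and -0.40 on the hepatocyte scale. For the plasma, receptor and regulator lists, the counts raised by insulin in normal medium over all libraries were near the share of all genes.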

How the data were processed

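Poly-A RNA of 36 libraries was sequenced after strand-specific preparation, per the labels' protocols. The deposited table holds expected counts (estimated counts per gene, 15.5% of values not whole), made by the authors with STAR and Salmon on GRCh37, per the submitters' processing notes; versions, annotation and counting settings were not given in the sources used here. Groups came from the sample titles. Symbols were matched by Ensembl identifier for 51994 genes (90.0%). Counts were rounded and fitted in edgeR 4.0.16 (R 4.3.3) with TMM scaling, filterByExpr and a batch date term, by robust quasi-likelihood tests adjusted by Benjamini-Hochberg over 17983 genes; a call needs an adjusted p under 0.05. The hepatocyte scale uses the geometric mean of 24 genes in place of TMM. Libraries under 10 CPM of COL1A1 were left out in 1 alternative.

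Other alternatives were DESeq2 1.42.0, its size factors, no filter, no batch term, single batches, only the groups compared, summed triplets, a replicate block and leaving out each library. No pair of replicates agreed within sampling noise (lowest chi-square per gene 4.20 over 144 pairs). In normal medium all 9 pairs of equal replicate numbers, which the labels give, had correlated deviations (r from 0.218 to 0.536). Only 3 of the 9 had their best match in the same number, so the numbers are not shown to pair these samples. The replicate block gave the same count of 5 lower members there. Named pathway genes are up to 3 per list and comparison with the smallest adjusted p, of which some are given. The test was also run on simulated counts, drawn independently for each library without triplets, batch shifts or differences in COL1A1. That run therefore does not cover these features of the data. The members and all lists were chosen with earlier results of these data known. Where the counting could split reads between close copies, as for APOC1 and APOC1P1, it cannot be checked.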

Additional observations from a re-analysis of the deposited data

Results flagged for a closer look

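Of the 40 sets of 9 libraries (10 members in 4 groups), 5 held a library far from the others by Dixon's test at its 95% critical value, which chance alone does in about 1 set in 20. All 5 were the same library, replicate 6 of untreated cells in normal medium, and in each it was the highest. Its level was 1514 CPM for APOA1, against a group median of 875, 946 CPM for APOA2, against 592, and 114 CPM for APOM, against 75.3. For APOC1 it was 55.6 CPM against 34.9 and for APOC2 85.0 CPM against 53.7. The long APOB was at 2395 CPM in this library, the lowest of its group, and the length index of this library was -0.27. The part of transcript length in these values was not tested. Without this library the log2 fold changes of APOM, APOC1 and APOC2 with insulin in normal medium still passed in edgeR.

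The response to insulin differed between the media for 4 members by the interaction test, as resistant minus normal medium on the log2 scale. Of all genes, 6.22% had positive and 23.5% negative interactions, and with triplets summed to 3 samples a group no member was called. The value was 0.86 for APOM and 0.71 for APOA5, and both stayed positive and called without the 6 libraries low in COL1A1. It was -0.61 for APOE and -0.88 for APOB, and without the 6 libraries these were 0.22 and -0.039 and did not pass.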

How the results depend on the processing

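Settings other than those of the report, all planned, were run for each of the 5 comparisons, and the values that moved are listed by setting, as counts of members called and as log2 fold changes whose sign turned. The cause of these differences was not tested, except that batches and summed triplets hold fewer samples. The falls of APOM and APOA5 with insulin in normal medium kept their direction in every setting run. Every member had at least 82 counts in every library. The share of higher genes among all called moved with the scaling: with DESeq2's size factors it was 58.6% in place of 70.9% for insulin in normal medium, 44.8% in place of 31.3% for the medium in insulin-stimulated cells and 36.1% in place of 20.9% for the interaction. The hepatocyte scale moved the median of all genes to 0.15, 0.38, 0.39, 0.66 and 0.26 in the order of the report's comparisons, with the interaction last.

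Scaled to the hepatocyte genes, insulin in normal medium gave 1 higher member. Scaled to the hepatocyte genes, insulin in resistant medium turned the sign of APOC1 (0.068), APOC2 (0.050), APOC3 (0.094), APOB (0.084) and MTTP (0.091). Scaled to the hepatocyte genes, the medium in untreated cells gave 5 higher members and turned the sign of APOA5 (0.058) and APOC1 (0.29). Scaled to the hepatocyte genes, the medium in insulin-stimulated cells gave 8 higher and 1 lower member and turned the sign of APOA1 (0.076), APOC1 (0.76), APOC3 (0.41), APOE (0.25) and APOB (0.35). Scaled to the hepatocyte genes, the interaction gave 5 higher and 0 lower members and turned the sign of APOA1 (0.22) and MTTP (0.17). With that scaling and without the 6 libraries, insulin in normal medium gave 1 higher member, while 10712 of 18230 genes were higher. With that scaling and without the 6 libraries, insulin in resistant medium turned the sign of APOC2 (0.0089), APOC3 (0.049), APOB (0.010) and MTTP (0.12). With that scaling and without the 6 libraries, the medium in untreated cells gave 5 higher members and turned the sign of APOA5 (0.073) and APOC1 (0.40). Of the 18230 genes tested there, 14607 were higher and 287 lower. With that scaling and without the 6 libraries, the medium in insulin-stimulated cells gave 7 higher and 1 lower member and turned the sign of APOA1 (0.050), APOC1 (0.68), APOC3 (0.38), APOE (0.22) and APOB (0.33). Of all 18230 genes, 8618 were higher and 724 lower in that fit. With that scaling and without the 6 libraries, the interaction gave 5 higher and 0 lower members and turned the sign of APOA1 (0.17) and MTTP (0.20). Positive interactions were called there for 798 of 18230 genes and negative ones for 6970. With the 6 libraries low in COL1A1 left out, insulin in normal medium gave 9 lower members and turned the sign of APOA2 (-0.38) and APOE (-0.37). With the 6 libraries low in COL1A1 left out, insulin in resistant medium turned the sign of MTTP (0.069). With the 6 libraries low in COL1A1 left out, the medium in untreated cells gave 7 lower members and turned the sign of APOC2 (-0.18) and APOE (-0.32). With the 6 libraries low in COL1A1 left out, the medium in insulin-stimulated cells gave 5 higher members and turned the sign of APOC1 (0.36), APOC3 (0.054) and APOB (0.0013). With the 6 libraries low in COL1A1 left out, the interaction gave 7 higher and 0 lower members and turned the sign of APOA1 (0.56), APOA2 (0.26), APOE (0.22) and MTTP (0.58). With triplets summed to 3 samples a group, insulin in normal medium gave 2 lower members and turned the sign of APOA2 (-0.11) and APOE (-0.079). With triplets summed to 3 samples a group, the medium in untreated cells gave 0 higher and 0 lower members. With triplets summed to 3 samples a group, the medium in insulin-stimulated cells gave 0 lower members and turned the sign of APOC1 (0.11). With triplets summed to 3 samples a group, the interaction gave 0 higher and 0 lower members. With only the groups compared, insulin in normal medium gave 3 lower members. With only the groups compared, insulin in resistant medium gave 10 lower members. With only the groups compared, the medium in insulin-stimulated cells turned the sign of APOC1 (0.051). Within the 22 April batch, insulin in normal medium gave 3 lower members and turned the sign of APOA2 (-0.21) and APOE (-0.32). Within the 22 April batch, the medium in untreated cells gave 0 higher and 0 lower members and turned the sign of APOC1 (0.090). Within the 22 April batch, the medium in insulin-stimulated cells gave 0 lower members and turned the sign of APOC1 (0.23). Within the 22 April batch, the interaction gave 0 higher and 0 lower members. Within the 11 April batch, insulin in normal medium gave 1 lower member and turned the sign of APOA1 (0.11) and MTTP (0.12). Within the 11 April batch, the medium in untreated cells gave 0 higher and 0 lower members and turned the sign of APOA5 (0.13) and APOC1 (0.062). Within the 11 April batch, the medium in insulin-stimulated cells turned the sign of APOA2 (-0.063). Within the 11 April batch, the interaction gave 0 higher and 0 lower members and turned the sign of APOC1 (-0.25) and APOC2 (-0.28). Within the 24 May batch, insulin in normal medium gave 2 lower members and turned the sign of APOA2 (-0.049) and MTTP (0.040). Within the 24 May batch, the medium in untreated cells gave 0 higher members and turned the sign of APOC2 (-0.19) and APOE (-0.23). With no batch term, insulin in resistant medium gave 4 lower members. With no batch term, the medium in insulin-stimulated cells gave 5 lower members and turned the sign of APOC1 (0.022). With no batch term, the interaction gave 1 higher member. With the replicate block, insulin in normal medium turned the sign of APOA2 (-0.0027) and APOE (-0.030). With the replicate block, insulin in resistant medium gave 6 lower members. With the replicate block, the medium in insulin-stimulated cells gave 1 higher member and turned the sign of APOC1 (0.057). With DESeq2's size factors in edgeR, insulin in normal medium turned the sign of APOA2 (-0.028) and APOE (-0.022). With DESeq2's size factors in edgeR, the medium in insulin-stimulated cells gave 1 higher member and turned the sign of APOC1 (0.045). With DESeq2's size factors in edgeR, the interaction gave 1 lower member. With DESeq2, insulin in normal medium turned the sign of APOA2 (-0.028) and APOE (-0.022). With DESeq2, the medium in insulin-stimulated cells gave 1 higher member and turned the sign of APOC1 (0.046). With DESeq2, the interaction gave 1 lower member. With no filter on low counts, insulin in normal medium turned the sign of APOA2 (-0.10) and APOE (-0.094). With no filter on low counts, the medium in insulin-stimulated cells gave 1 higher member and turned the sign of APOC1 (0.10). With no filter on low counts, the interaction gave 0 lower members. Apart from these, the replicate block changed no count of members by over 1.5 times. Deviations of equal replicate numbers correlated above 0.1 in 5 of 9 pairs for insulin in resistant medium, 5 of 9 for the medium in untreated cells and 2 of 9 for the medium in insulin-stimulated cells. These numbers are therefore not shown to pair the samples, and such counts cannot exclude a pairing.

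Leaving out 1 library at a time gave 0 to 1 higher for insulin in normal medium, 0 to 1 higher for the medium in insulin-stimulated cells, 1 to 3 higher for the interaction, 0 to 6 lower for insulin in resistant medium, 0 to 3 lower for the interaction. Log2 fold changes whose sign turned in at least 1 of these fits ran from -0.19 to 0.097 for APOA2 with insulin in normal medium, -0.18 to 0.099 for APOE with insulin in normal medium, -0.31 to 0.0033 for MTTP with insulin in normal medium, -0.15 to 0.034 for APOC1 with the medium in untreated cells, -0.066 to 0.10 for APOE with the medium in untreated cells, -0.088 to 0.19 for APOC1 with the medium in insulin-stimulated cells, -0.040 to 0.25 for APOC1 with the interaction, -0.013 to 0.27 for APOC2 with the interaction.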

Other observations

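IGF1R RNA, the transcript of the gene knocked out in all groups, was still read at 112 ± 23.8 CPM in untreated and 93.6 ± 11.1 CPM in insulin-stimulated cells of normal medium, and at 89.4 ± 19.1 and 99.7 ± 17.7 CPM in resistant medium (SD, n = 9). With no unedited cells among the groups, these levels do not check the knockout.

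Markers of other cells that make apolipoproteins were low or mixed. The 8 enterocyte markers summed to 0.799 to 2.29 CPM in any library, although enterocytes are the other main source of APOB, APOA1 and MTTP. Of the macrophage markers, C1QA, TYROBP and MARCO were listed at 0 in all libraries, while LYZ lay between 351 and 2031 CPM.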
